A study of Drosophila melanogaster with 3 samples.

Results

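Binding of FoxP outside protein-coding genes was described in whole Drosophila melanogaster prepupae. Each region was placed by its summit, a single position deposited with it. A region was counted as intergenic when its summit lay outside the span of every protein-coding gene and more than 500 bp from any protein-coding transcription start. Of the 2395 thresholded regions on the chromosome arms, 358 met this rule (14.9%, 95% Wilson interval 13.6 to 16.4). The others were 1089 summits within 500 bp of a start, called promoter summits here, 909 in introns and 39 in exons. The study mapped FoxP by chromatin immunoprecipitation and sequencing (ChIP-seq) in 3 biological replicates that form 1 group, so there is no treated or mutant group to compare. All 3 replicates came from 1 transgenic line, named fd85E-GFP, that stably carries FoxP (also called fd85E) with GFP fused at the C-terminal end, and the chromatin, sonicated to 200 to 800 bp, was pulled down with an antibody against GFP. The animals were prepupae of unknown age with males and females pooled, and whole organisms were used, so signal from a few cells or from many cannot be told apart. The promoter that drives the tagged protein is not given in the sources used here.

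FoxP is the fly FOXP protein, a forkhead transcription factor; forkhead factors are DNA-binding proteins that recognise short A/T-rich sites. In flies, FoxP is known for roles in neurons, in motor control and in decision making. At the prepupal stage larval tissues are broken down and adult structures begin to form. DNA between protein-coding genes holds distal enhancers, which act on genes at a distance, and genes for noncoding RNAs. Among these are long noncoding RNAs, and microRNAs, short RNAs that repress messenger RNAs by pairing through a seed near their 5′ end.

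Sequences around 8 intergenic summits are shown because they hold, or lack, the short sequence CACTG, which was found near intergenic summits more often than beside them. Each is 100 bp to either side of the summit in dm6, plus strand, from the RefSeq Release 6 assembly. Capitals mark CACTG on either strand (CACTG or CAGTG) and the forkhead sites TGTTTAC and TATTTAC, of which these windows held none. They comprise the summit with the highest signal, better-ranked summits with several copies, and some summits beside microRNA genes or in the 7SKa gene. This choice does not show how common CACTG was, which was found at 196 of all 358 intergenic summits. Windows in the interval of mir-276a (pooled signals 428 and 158) and in the let7C gene (276) held no copy and are not shown. Other windows that were read but are not shown held 1 to 3 copies.
Cyt-c1L to eEF1gamma summit, chr3R:29214299-29214499: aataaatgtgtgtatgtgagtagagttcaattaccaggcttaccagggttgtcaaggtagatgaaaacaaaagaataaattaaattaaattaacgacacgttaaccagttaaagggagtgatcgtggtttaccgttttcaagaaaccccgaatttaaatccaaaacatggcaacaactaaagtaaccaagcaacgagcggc
CG43245 to CG12523 summit, chr3L:10776477-10776677: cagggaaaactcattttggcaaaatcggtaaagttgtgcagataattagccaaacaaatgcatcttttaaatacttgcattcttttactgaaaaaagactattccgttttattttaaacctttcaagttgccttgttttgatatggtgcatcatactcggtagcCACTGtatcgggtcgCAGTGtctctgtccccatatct
CG43336 to pxb summit, chr3R:15651862-15652062: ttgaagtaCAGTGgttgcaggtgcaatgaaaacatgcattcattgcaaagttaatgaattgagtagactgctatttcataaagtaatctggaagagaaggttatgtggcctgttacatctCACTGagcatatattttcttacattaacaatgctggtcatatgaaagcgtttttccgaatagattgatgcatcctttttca
CG17896 to CG17778 summit, chrX:493929-494129: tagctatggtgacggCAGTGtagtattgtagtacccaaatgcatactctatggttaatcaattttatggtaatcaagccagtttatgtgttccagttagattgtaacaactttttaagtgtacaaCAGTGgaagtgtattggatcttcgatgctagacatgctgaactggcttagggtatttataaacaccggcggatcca
CG9300 to Shal summit, chr3L:19560722-19560922: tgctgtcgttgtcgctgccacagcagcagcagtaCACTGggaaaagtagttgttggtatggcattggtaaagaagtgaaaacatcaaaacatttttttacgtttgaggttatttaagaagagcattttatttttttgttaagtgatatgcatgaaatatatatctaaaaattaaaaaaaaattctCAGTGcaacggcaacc
CG1142 to alpha-Est10 summit, chr3R:7474737-7474937: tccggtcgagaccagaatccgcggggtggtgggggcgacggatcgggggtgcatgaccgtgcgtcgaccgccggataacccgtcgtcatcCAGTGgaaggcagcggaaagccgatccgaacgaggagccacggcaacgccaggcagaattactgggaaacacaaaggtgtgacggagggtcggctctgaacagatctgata
Ir68a to scyl summit, chr3L:11246327-11246527: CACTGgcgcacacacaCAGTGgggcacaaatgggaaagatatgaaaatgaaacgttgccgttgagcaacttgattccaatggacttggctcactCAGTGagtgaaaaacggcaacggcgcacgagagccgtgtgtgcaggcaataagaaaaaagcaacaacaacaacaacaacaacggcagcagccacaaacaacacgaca
Atet to CG15429 summit, chr2L:4348643-4348843: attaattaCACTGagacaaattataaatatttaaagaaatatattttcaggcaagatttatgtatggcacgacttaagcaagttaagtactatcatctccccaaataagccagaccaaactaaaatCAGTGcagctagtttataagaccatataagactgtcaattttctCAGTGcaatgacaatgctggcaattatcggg
The window between Cyt-c1L and eEF1gamma, with the highest signal of all, held no copy. The windows of Ir68a to scyl and of Atet to CG15429 held 3 copies each. The Ir68a to scyl window shown is that of the weaker of 2 summits in the interval (pooled signal 232). The stronger summit there, with a pooled signal of 494, held no copy within 100 bp. In the window in the 7SKa gene (CG1142 to alpha-Est10) there was 1 copy.

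Mature microRNAs from genes that share an interval with intergenic summits are shown next, since these genes stood beside several of the best-ranked summits. They were read from the RefSeq annotation and assembly, and capitals mark the seed, bases 2 to 8. The annotation lists 2 mature products for each of these genes and the first is shown; which is more abundant is not given in the sources used here.
mir-279: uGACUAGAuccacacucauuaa
mir-996: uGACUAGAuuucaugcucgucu
mir-276a: cAGCGAGGuauagaguuccuacg
mir-276b: cAGCGAGGuauagaguuccuacg
mir-9a: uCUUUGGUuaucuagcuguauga
let-7 (mir-let7): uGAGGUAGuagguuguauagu
mir-100: aACCCGUAaauccgaacuugug
mir-125: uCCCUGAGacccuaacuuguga
The seeds of mir-279 and mir-996 were the same, GACUAGA, and the mature forms of mir-276a and mir-276b shown here were identical, with the seed AGCGAGG. Each other seed shown was held by 1 of these genes. The second products of mir-279 and mir-996 differ in seed, and those of mir-276a and mir-276b share a seed without being identical.

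Signal values of the intergenic regions had a median near that of other thresholded regions but did not reach as high. The deposited signal value, a score with no stated scale, ran from 134.55 to 960 in the pooled reads, with a median of 187 and quartiles of 155 and 249. The median was 198 at promoter summits, 188 at intronic summits and 192 over all arm regions. The third quartile of the regions that are not intergenic was 268, and the highest value was 1867 at promoter and 2044 at intronic summits. Of the 300 arm regions with the highest signal, 35 were intergenic (11.7%, against 14.9% of all arm regions), and 169 were promoter summits. Pooled values have no replicate error, and were higher than the values of the same regions in each replicate list. Beyond the rule, 1 limit of position and 1 of signal bound the set: the members nearest a start lay at 534, 536 and 541 bp, against 496, 491 and 490 bp for the farthest promoter summits, and the lowest member signal was 134.55 against 134.113 at the best intergenic region below the threshold.

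The 3 replicates held intergenic regions about as often as the others. A region was called held by a replicate when it overlapped at least 1 bp of a region among the best-ranked of that replicate's own list, as many as the thresholded list holds. All 3 replicates held 209 of the 358 regions (58.4%), against 59.1% over all arm thresholded regions, so this share is near the background. A further 104 were held by 2 replicates, 43 by 1 and 2 by none. Replicates 1, 2 and 3 held 83.5%, 83.2% and 78.5% of the intergenic regions, and 80.6%, 83.4% and 80.1% of the others. The mean difference of 0.389 percentage points (SD 2.34, n = 3) was positive in 1 of 3 replicates (2-sided exact sign-flip permutation test, p = 1). It was -0.896 without replicate 1, so its direction rests on that replicate. Every one of the 358 had a region within 200 bp in all 3 replicate lists, as had 1987 of the 2037 others. The median rank percentile, in which lower is better, was 4.44, 5.16 and 6.63 for intergenic regions and 4.00, 5.003 and 5.39 for the others, so the intergenic regions ranked slightly lower in 3 of 3 replicates (mean difference 0.609, SD 0.560, exact p = 0.25). Without replicate 3 the difference was 0.296. Against promoter summits alone the difference was 0.840 (3 of 3, exact p = 0.25) and against intronic summits 0.275 (2 of 3, exact p = 0.5). Within the intergenic set, signal values of replicate pairs had Spearman correlations of 0.496, 0.566 and 0.585 over 358 regions, which share the pooled selection. Over the regions that are not intergenic the same pairs had 0.579, 0.597 and 0.622, higher in each.

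In all, 30 differences were tested over the 3 replicates by the 2-sided exact sign-flip permutation test. With 3 replicates its smallest p is 0.25, so none could pass 0.05, and the smallest Benjamini-Hochberg adjusted p was 0.278. The differences below are therefore given with the value in each replicate, their spread and the number of replicates that show the direction. The best-ranked sets share many loci, since all 3 replicates held 209 of the 358 members. Sequence, distance and gene features of a locus are the same in every list. Agreement between replicates and the SD therefore describe how repeatable the lists were, not the uncertainty over loci. In each replicate list, these best-ranked regions were set against all lower-ranked ones, which include background regions. A p above the threshold does not show that there was no difference.

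Intergenic summits were less frequent at the top of each replicate list than lower down. The lists held 30000, 24326 and 22698 regions. Intergenic summits made up 14.97%, 15.03% and 14.3% of the best-ranked arm regions and 25.1%, 22.6% and 21.1% of the lower-ranked ones in replicates 1, 2 and 3. The ranges did not overlap, and the mean difference was -8.16 percentage points (SD 1.76, n = 3, exact p = 0.25).

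The highest signals fell between genes of quite different kinds. The region with the highest value, chr3R:29214285-29214544, lay between Cyt-c1L and eEF1gamma, a subunit of a translation elongation factor, and had signals of 336, 371 and 259 in replicates 1, 2 and 3. It ranked 34, 13 and 35 in the 3 lists, so it stood near the top of each. The next, chr2R:13035200-13035458 between Su(z)2, a Polycomb group gene, and CG13323, had 289, 350 and 231. A region between CG43245 and CG12523 followed with 270, 336 and 241. Replicate 2 gave the highest value of these 3 regions and replicate 3 the lowest, and the replicates differed by less than 2-fold in each.

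The rest of the 20 best-ranked regions held by all 3 replicates lay beside genes of varied kinds. Upstream of Act5C, a cytoplasmic actin gene, a region inside the long noncoding RNA gene CR45668 had signals of 168, 226 and 166. Between RYBP, which encodes a partner of Polycomb complexes, and Ppa the values were 104, 203 and 188, so replicate 1 was the lowest of the 3. Between Ir68a and scyl, an inhibitor of TOR signalling, replicate 1 was the high one, with 248 against 108 and 128. This is the stronger summit of that interval, not the one whose sequence is shown. A region 1085 bp upstream of a start of tara had 166, 152 and 133. The region between CG9300 and Shal, a potassium channel gene, had 183, 167 and 109. Its summit was in an exon of the long noncoding RNA gene CR44676, 6029 bp from Shal. Others of the 20 lay in the intervals COX7AL2 to CG31668 (2 regions), Sol1 to Cyp9f2, CG4004 to Paics (2 regions), CG43336 to pxb, CG17896 to CG17778, CG3149 to AdamTS-B, CG3092 to yip3, CG7320 to CheA75a, Or67d to CG12362 and NijA to CG43245. Over all 20 the pooled signal ran from 412 to 960.

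**Figure D1:**
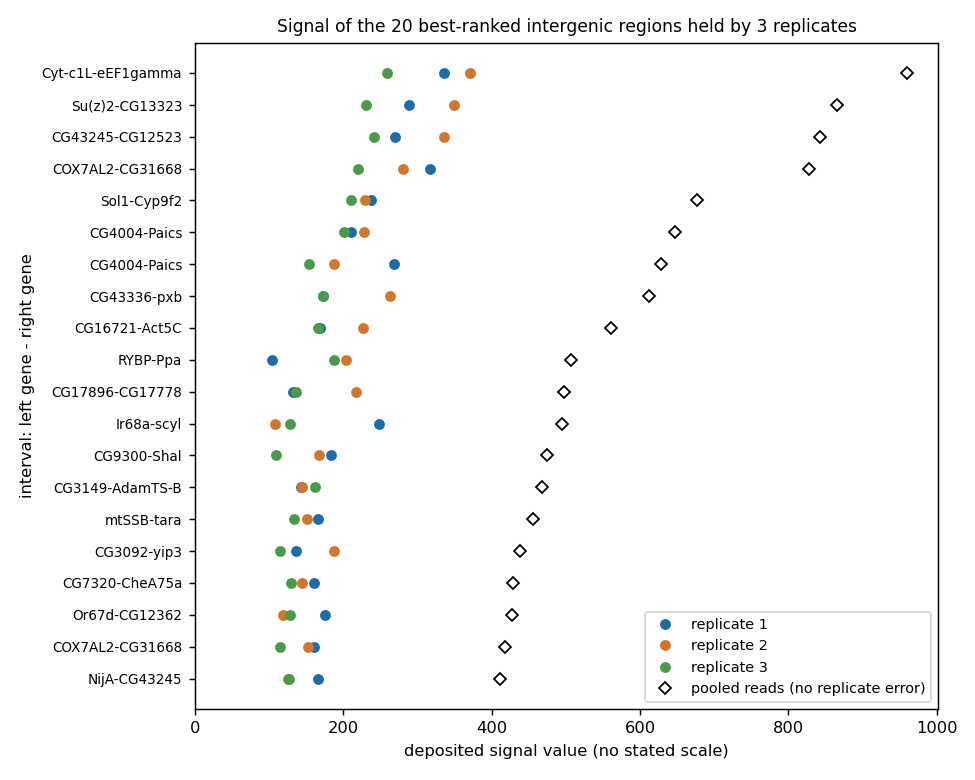
Deposited signal value (x axis, no stated scale) of the 20 best-ranked intergenic regions held by all 3 replicates, 1 row per region, labelled by the flanking protein-coding genes. Circles are replicates and diamonds the pooled reads; the top region has 336, 371 and 259 in the replicates and 960 in the pooled reads.

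A short sequence not among the motifs searched by name stood out at intergenic summits. All 7-letter words found within 100 bp of at least 30 members were ranked by the ratio of their share at members to their share in windows shifted by 1000 and 1500 bp to either side, 247 words in all, with both strands counted together. Of the first 10 words, 7 held CACTG. The highest was CACTGAG, found at 37 of 358 summits (10.3%) and 1.47% of the 1432 shifted windows. ACAGTGG followed at 11.7% against 2.23%, and CAGTGTA at 10.1% against 1.96%. These 3 words overlap in the letters CACTG, and 99 members (27.7%) held at least 1 of them. They were picked for their size on these members, so the member values are a description and support nothing. CACTG itself was found at 196 summits (54.7%, 95% Wilson interval 49.6 to 59.8) and in 31.6% of shifted windows, and 68 members held it 2 or more times.

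The words were also counted at summits that played no part in the choice. CACTG was present at 51.6% of intronic summits against 29.7% of their shifted windows, and at 43.4% of promoter summits against 32.0%. Over all arm thresholded summits, the members included, CACTG was at 48.1%. In the same arm summits the share was 6.14% for CACTGAG. It was 10.1% for ACAGTGG, with 12.0% of intronic and 7.90% of promoter summits, so this longer word was not limited to the intergenic set. The third, CAGTGTA, was at 6.81% of arm summits. Among the intronic summits of replicates 1, 2 and 3, CACTG was near 49.6%, 53.5% and 50.2% of the best-ranked ones and 32.6%, 33.8% and 34.2% of the lower-ranked ones. That difference of 17.6 percentage points (SD 1.89, n = 3) was positive in 3 of 3 replicates (exact p = 0.25). Promoter summits gave a difference of 7.32 points (SD 1.73, exact p = 0.25). For all 4 words the difference was positive in 3 of 3 replicates at both intronic and promoter summits. In windows of 50 bp the CACTG difference was smaller, at 5.60 points for intronic and 1.15 for promoter summits. Intergenic summits, on which the words were picked, were not tested. Their shares were 48.6%, 54.5% and 51.3% among best-ranked and 34.7%, 36.0% and 35.9% among lower-ranked ones, a difference of 16.0 points that was 2.03 in windows of 50 bp.

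CACTG was not centred on the deposited summits but lay to either side of them. In bins of 25 bp, 51 of 358 members (14.2%) had a copy that starts in the bin centred 87.5 bp before the summit and 52 (14.5%) in that centred 62.5 bp after it, in plus-strand order. In the bins next to the summit itself the copies numbered 17 (4.75%) and 15 (4.19%), within the 2.79% to 6.42% seen in the 16 bins more than 300 bp away. Intronic summits showed the same shape, with 12.1% and 13.2% at these distances and 4.18% and 3.85% next to the summit. At promoter summits the shares were 10.1% and 8.26%, and 5.60% on each side of the summit. The 29 members with regions narrower than the standard width of 416 bp held CACTG in 22 cases (75.9%, 95% Wilson interval 57.9 to 87.8), against 37.1% of their own shifted windows. Narrower regions were among those first searched for words, so this share is a description. Of the 358 members, 329 had the standard width, and in those examined the deposited summit was the middle of the region. How the summit position was set is not given in the sources used here, and its part in this shape was not tested.

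**Figure D2:**
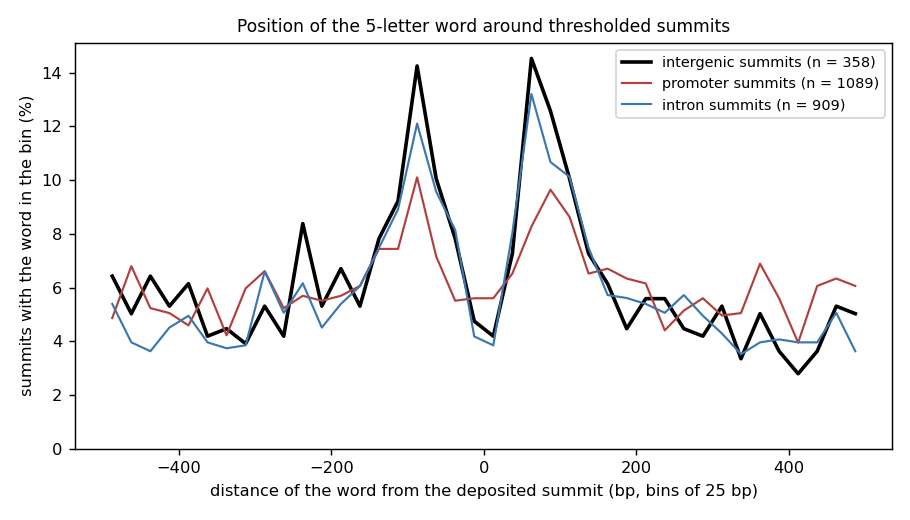
Share of thresholded summits (y axis, percent) with the 5-letter word described in the text in each 25 bp bin, by distance from the deposited summit (x axis, bp), both strands counted. Black is the 358 intergenic summits, red the 1089 promoter and blue the 909 intronic summits; the intergenic share reaches 14.2% and 14.5% on the 2 sides and is 4.75% and 4.19% next to the summit.

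Forkhead sites were about as frequent at intergenic summits as at other thresholded ones. TGTTTAC or TATTTAC, on either strand within 100 bp, was at 43 summits (12.0%), against 12.5% of all arm summits, 9.59% of intergenic summits below the threshold and 8.94% of windows shifted by 1000 bp. The stricter TGTTTAC was at 13 summits (3.63%), against 5.34% of all arm summits and 3.77% of shifted windows. In the replicates, best-ranked intergenic summits held either form in 12.3%, 10.2% and 9.91% of cases and lower-ranked ones in 10.6%, 9.41% and 10.03%, a mean difference of 0.776 percentage points (SD 0.890, n = 3) positive in 2 of 3 replicates (exact p = 0.5). Over summits more than 1000 bp from a start the difference was -0.535. For TGTTTAC alone it was -0.448 (SD 0.257, negative in 3 of 3, exact p = 0.25).

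GAGAG and the DREF site had lower shares at intergenic than at promoter summits, and TATAAA a like share. GAGAG, bound by GAGA factor, was found at 92 intergenic summits (25.7%), against 33.3% of all arm summits and 37.3% of promoter summits. It was at 30.6% of intronic summits, 22.2% of intergenic summits below the threshold and 23.7% of shifted windows. TATCGATA, the site of the promoter factor DREF, was at 0 of 358, with an upper 95% Wilson bound of 1.06%, against 1.84% of all arm summits and 3.67% of promoter summits. It was also rare at intronic summits (0.440%), at intergenic summits below the threshold (0.369%) and in shifted windows (0.419%). Its rarity was therefore not particular to the intergenic set. TATAAA was at 31.0%, against 30.9% of all arm summits, 30.6% of promoter summits and 21.8% of shifted windows. The E-box CANNTG was at 58.1%, against 60.5% of all arm summits and 65.1% of shifted windows. Between best-ranked and lower-ranked intergenic summits of the replicates, the mean difference was 3.60 percentage points for GAGAG (SD 1.04), 3.298 for TATAAA (SD 0.0809), -0.407 for TATCGATA (SD 0.0648) and -6.64 for the E-box (SD 0.937), each of 1 sign in 3 of 3 replicates (exact p = 0.25). Widening the window to 200 bp moved these differences to 11.6 for GAGAG, -3.61 for TATAAA, -0.634 for TATCGATA and -1.63 for the E-box. In windows of 50 bp the difference was 2.37 for GAGAG and -0.170 for TATCGATA. GC content also differed between these sets, and its part in the motif counts was not tested. Its median was 35.8% within 100 bp of intergenic summits, 39.3% at intergenic summits below the threshold and 41.8% in shifted windows. Best-ranked intergenic summits had a lower median GC content than lower-ranked ones in 3 of 3 replicates, at 35.3%, 35.8% and 36.8% against 39.3%, 39.8% and 39.8% (exact p = 0.25). Repeat-masked bases had a higher median share, at 22.4%, 18.9% and 20.4% against 18.9%, 16.9% and 16.9% (3 of 3, exact p = 0.25).

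Long noncoding RNA genes held most of the summits that lay in an annotated noncoding gene. In all, 52 intergenic summits (14.5%, 95% Wilson interval 11.3 to 18.6) lay inside one, against 10.7% of the intergenic summits below the threshold. Of these 52, 50 were in long noncoding RNA genes, 1 in an antisense RNA gene and 1 in the snRNA gene 7SKa, with 37 in an exon and 15 in an intron. Best-ranked intergenic summits were inside a noncoding gene in 14.5%, 14.3% and 14.0% of cases and lower-ranked ones in 10.2%, 10.9% and 12.0%. The groups did not overlap, and the mean difference was 3.25 percentage points (SD 1.16, n = 3, exact p = 0.25). A noncoding RNA start lay within 500 bp of 45 members (12.6%), against 7.38% below the threshold, and the difference in replicates was 5.17 points (SD 0.5001, exact p = 0.25), positive in 3 of 3. None of the 358 lay in an annotated transposable element, against 75 (1.11%) below the threshold.

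Among noncoding genes with a name of their own, the summit with the highest signal was in an exon of Vinr. Its region, chrX:12751227-12751564 between CG4004 and Paics, had signals of 268, 188 and 155 in replicates 1, 2 and 3. A neighbour in an exon of CR44619 in the same interval, which ends at the purine synthesis gene Paics, had 211, 228 and 201. The let7C gene, whose transcript carries let-7, mir-100 and mir-125, held 2 summits in introns. The first had 91.5, 127 and 62.2 and was held by all 3 replicates, the second 27.8, 53.8 and 64.2 and was held by 2. A summit in 7SKa, whose RNA binds and restrains the elongation factor P-TEFb, had 70.3, 79.2 and 68.8. A summit in an exon of Hsromega, a noncoding RNA known for its induction by heat shock, had 49.4, 73.3 and 60.7 and was held by 2 replicates. Values in the last 4 summits were low beside those of Vinr in every replicate.

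Small noncoding RNA genes were rarely at the summits. Within 500 bp of 5 members (1.40%, against 1.23% below the threshold) lay such a gene: 2 snoRNA genes near Boot, 7SKa, mir-276a, 2 phenylalanine tRNA genes between Smurf and CG10936, and an alanine tRNA gene between mbl and CG10939. The snoRNA region had signals of 122, 130 and 86.5. The 2 tRNA regions were near the lower end of the set, with pooled signals of 137 each.

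MicroRNA genes shared their intervals with 26 members (7.26%, 95% Wilson interval 5.004 to 10.4), against 5.45% of intergenic summits below the threshold. An interval is the stretch between the nearest protein-coding genes on either side. Of the 93 microRNA genes outside protein-coding genes, 17 were in an interval with a member. In replicates 1, 2 and 3 the share was 7.26%, 9.09% and 9.62% for best-ranked intergenic summits and 5.13%, 5.68% and 5.24% for lower-ranked ones, a difference of 3.31 percentage points (SD 1.13, n = 3) in 3 of 3 replicates (exact p = 0.25). Within 20 kb of a microRNA gene lay 47 members (13.1%, against 7.55%), and in the replicates 13.1%, 13.2% and 16.0% against 7.41%, 7.86% and 7.99% (difference 6.38 points, SD 1.45, exact p = 0.25). Neighbouring summits share a microRNA gene, so these counts do not rest on separate loci.

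The region with the highest intergenic signal was 1186 bp upstream of mir-279 and 2785 bp upstream of mir-996. mir-279 is known for its part in the development of olfactory neurons, and mir-996, with the same seed, lies next to it. A second, weaker summit in the interval was 8093 bp upstream of mir-279 and was held by 1 replicate. mir-9a, which acts in sense organ precursors, had 2 summits upstream at 4309 and 3172 bp, with pooled signals of 474 and 203. The first, the region between CG9300 and Shal named above, had 183, 167 and 109 in the replicates. The replicate medians for intergenic regions were 71.3, 66.4 and 53.1. This region was picked for its high rank and for being held by all 3 replicates, so its higher values follow from that choice.

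Distances to other microRNA genes varied widely. The interval from Or67d, a pheromone receptor gene, to CG12362 is 138193 bp long and held mir-276a, mir-276b and 5 summits. Of these, 4 were in the long noncoding RNA gene CR46006 and 1 in CR46004, and the summit nearest mir-276a lay 125 bp upstream. The summit 1351 bp upstream of mir-276a had 172, 109 and 116 in the replicates. mir-14 had a summit 1045 bp upstream with a pooled signal of 400, and mir-8 summits 3038 and 874 bp upstream with 278 and 179. Between Alp13 and Fmr1, summits lay 3420 and 8487 bp upstream of mir-317, in the cluster with mir-277 and mir-34. A summit between the Hox genes Dfd and Scr was 2944 bp upstream of mir-10, with 24.1, 71.9 and 49.3. Further cases were mir-4951, 20373 bp from the Hsromega summit, and mir-280, 23886 bp from a summit between CG30371 and pdm3.

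**Figure D3:**
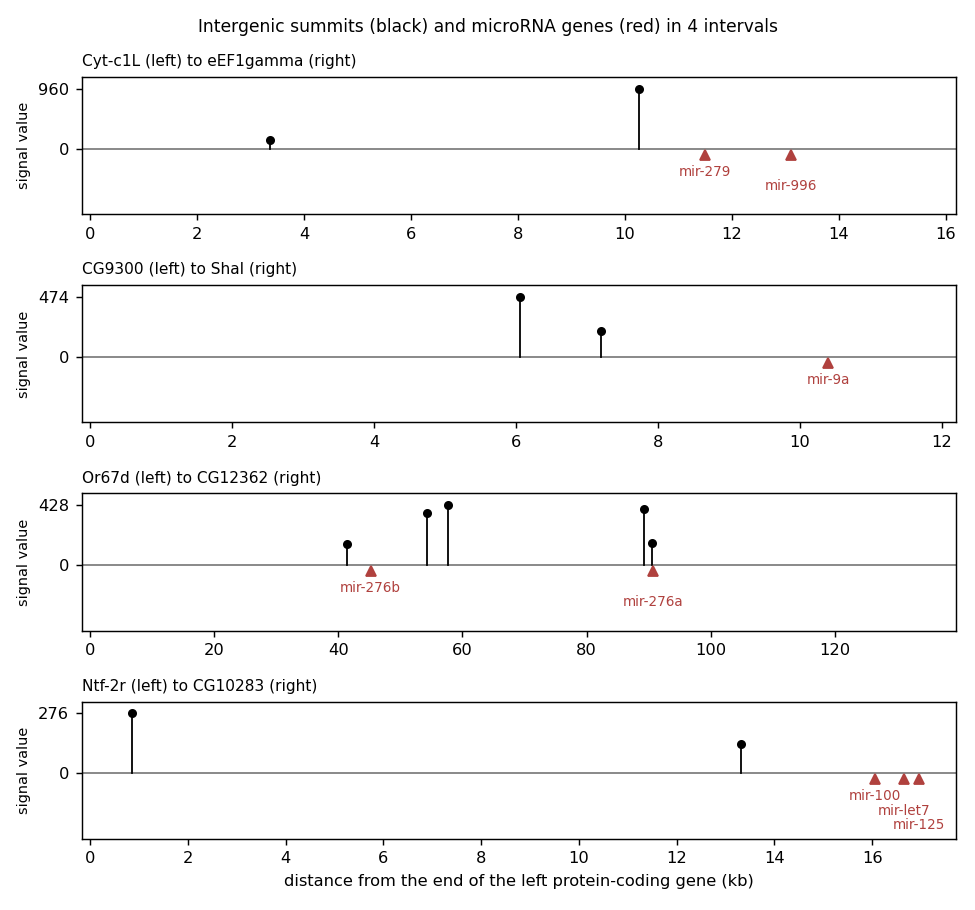
Maps of 4 intervals between protein-coding genes: distance from the left gene's end (x axis, kb) against the pooled signal value of each intergenic summit (y axis, black stems), with microRNA genes as red triangles. The highest stem, 960, stands 1186 bp before mir-279.

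**Figure D4:**
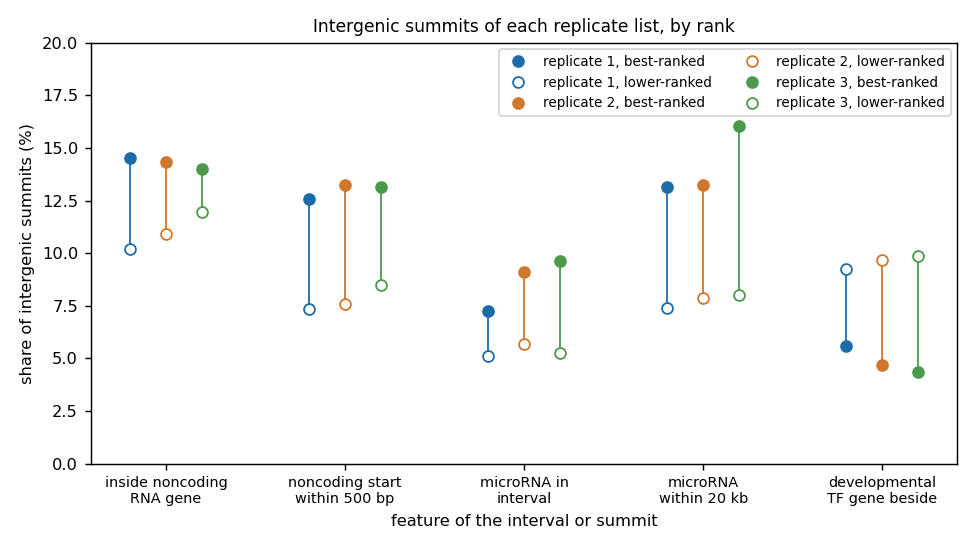
Share of intergenic summits (y axis, percent) with each of 5 features (x axis) in the replicate lists. Filled circles are summits among the best-ranked regions and open circles lower-ranked summits of the same replicate. The filled circles are higher for the 4 noncoding features in 3 of 3 replicates. They are lower in 3 of 3 for flanking genes of the list of developmental transcription factors and patterning.

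Most members lay a few kilobases from a protein-coding start. The median distance was 4462 bp (quartiles 1740 and 9908 bp), with 38 members under 1 kb, 154 at 1 to 5 kb, 139 at 5 to 20 kb and 27 at 20 kb or more. Intergenic summits below the threshold had a median of 5159 bp. In replicates 1, 2 and 3 the median was 4187, 4597 and 4250 bp for best-ranked summits and 5261, 5212.5 and 4677.5 bp for lower-ranked ones, so it was shorter in 3 of 3 (mean difference -706 bp, SD 333, exact p = 0.25). The intervals themselves had a median length of 17469 bp at members and 19559 bp below the threshold. The summit was upstream of the nearest start for 227 members (63.4%, against 61.9% below the threshold). Flanking genes were in tandem for 177 members, divergent for 108 and convergent for 73 (49.4%, 30.2% and 20.4%, against 50.3%, 28.0% and 21.5%). Between best-ranked and lower-ranked summits of the replicates, divergent pairs differed by 1.77 percentage points (SD 1.64) and convergent pairs by -2.93 (SD 0.636), each in 3 of 3 (exact p = 0.25). Within 500 bp of the 3′ end of a flanking gene lay 23 members (6.42%, against 7.01%). The 5 members farthest from a start were 4 summits of CR46006, at 59049, 55699, 48941 and 47715 bp, and 1 near the POU factor gene vvl, at 57300 bp.

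On the larger arms the intergenic share was lowest on X. Per arm, 21.0% of the thresholded regions on 3L were intergenic (113), 15.8% on 2L, 14.5% on 2R, 13.2% on 3R, 9.37% on X (40) and 0 of 5 on chromosome 4. Below the threshold the order at the ends was alike, with 30.2% on 3L and 16.2% on X. The 358 members fell into 234 intervals, of which 168 held 1 member, 37 held 2 and 29 held 3 or more, with 116 members in these 29. Another member was within 5 kb of 138 (38.5%). Another summit of the same class was that near for 36.1% of intronic and 23.3% of promoter summits, and among the 358 intergenic summits next below the threshold for 29.1%, so intronic summits stood nearly as close together. These shares were not tested. There were 7 pairs of overlapping regions, so members are not all separate sites.

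The intervals with most members differed in how evenly their summits were filled. Between NijA and CG43245 there were 7 summits with pooled signals from 136 to 412, and between hng3 and CG13898 7 from 140 to 388. Between CG18404 and heca, known as headcase, a regulator of imaginal cell growth, all 6 summits were held by all 3 replicates and had pooled signals from 219 to 306. The highest of them had 118, 113 and 74.0 in the replicates. Between Ids and sty (sprouty), an inhibitor of Ras signalling, 6 summits had 141 to 267 and 3 of them were held by all replicates. Further intervals with 5 summits were COX7AL2 to CG31668, mtSSB to tara, and Pex7 to hry (hairy), a repressor of patterning and neural genes.

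Flanking genes were counted in 11 gene lists, each beside its share of intergenic summits below the threshold. A flanking gene is the nearest protein-coding gene on either side of the summit, at any distance. It need not be the gene with the nearest start. Genes for developmental transcription factors and patterning flanked 22 members (6.15%) against 9.43%. In the replicates the best-ranked summits gave 5.59%, 4.68% and 4.37% and the lower-ranked ones 9.27%, 9.68% and 9.86%, so the shares did not overlap (mean difference -4.72 percentage points, SD 0.934, exact p = 0.25). The highest-ranked members of that list were flanked by drm, lz, C15 and Doc1 with Doc2. The summit 4589 bp from drm had 95.4, 135 and 81.0 in the replicates, and the start of IFT57 was nearer, at 3869 bp. Notch pathway genes flanked 8 members (2.23% against 1.03%): the Enhancer of split genes, targets of Notch, the glycosyltransferase gene fng, numb and Ser. The summit between E(spl)mbeta-HLH and E(spl)malpha-BFM had 138, 119 and 108.

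Lists tied to metamorphosis and signalling gave small counts. Ecdysone response genes flanked 10 members (2.79% against 1.70%), namely hid, Blimp-1, Eip93F, Hr38, Eip78C and sad. The cell death gene hid flanked 3 summits, and the highest had 104, 120 and 64.4 in the replicates. It lay 9530 bp from hid, with the start of CG7320 nearer, at 6323 bp. A summit 18985 bp from Blimp-1, a repressor that times prepupal development, had 105, 87.7 and 52.0. The start of Eaf6 was nearer to it, at 3698 bp. Genes of cell death and autophagy flanked 7 members (1.96% against 0.576%): hid, which is on both lists, Atg13, Atg9 and Diap1, an inhibitor of caspases. Genes of EGF receptor, Ras and JNK signalling flanked 10 (2.79% against 0.931%), of which 6 were the sty summits and 2 lay near kay, the fly Fos gene. Chemosensory receptor genes flanked 11 (3.07% against 3.86%), 5 of them by Or67d. Axon guidance genes flanked 5 (1.40% against 2.36%), near Fas3, robo2, Nrt and robo1. Forkhead family genes flanked 2 (0.559% against 1.17%), croc and foxo, the latter a target of insulin signalling, with 97.7, 93.6 and 60.1 and 105, 86.2 and 59.5. Ribosomal protein genes flanked 2 (0.559% against 0.828%), cuticle protein genes 1 (0.279% against 1.26%) and heat shock genes 0 (against 0.384%). These counts hold several summits of 1 interval, and the lists other than the first were not tested over replicates.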

How the data were processed

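ChIP-seq peak lists of 3 biological replicates were used in dm6. Per the file sheets, each replicate list came from the reads of that replicate, the pooled list from all 3, and the control file was shared; the sources used here do not name an aligner or peak caller. Each region carries a signal value, a score deposited by the authors with no stated scale, used here for ranking and description, and a deposited −log10 q-value (1.86 to 2.07 in the thresholded list), not used. Read depths are unknown. The 20 mitochondrial regions were left out. The labels give the replicates as separate biosamples and name no batch.

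Coordinates are 1-based. Gene models were Ensembl release 115 (BDGP 6.54) and sequence RefSeq Release 6. Python 3.11.15, pandas 2.3.3, NumPy 2.4.6, SciPy 1.17.1 and matplotlib 3.10.9 were used, and the counting steps were tested on simulated data. Groups within replicates were compared by 2-sided exact sign-flip permutation tests. Wilson intervals (95%) cover counting error only. No 2 replicates shared an identical region.

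Members, gene lists and motifs were chosen with earlier results of these data known. The rule for named genes takes the 20 best-ranked regions held by all 3 replicates, summits in or within 500 bp of small noncoding genes, the best 10 in long noncoding genes and any in a named one, the 5 farthest from starts, up to 4 genes per list, and intervals with 3 or more members. The word screen (first looked at with 6- and 7-letter words in all, narrower and best-ranked members), the comparisons over replicates of microRNA distance, noncoding starts, developmental genes, distances, orientation, GC and repeat content, the neighbours within 5 kb of other summits and the wider printed sequence were added after seeing the data. Other genes were named after their values were seen. One interval that the rule covers is not reported here.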

Additional observations from a re-analysis of the deposited data

How the results depend on the processing

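Of the recomputed values, 138 counted as unchanged and 27 did not. For differences tested over the replicates only the direction counted, so the 138 include large changes in size. Examples are GAGAG in windows of 200 bp (11.6 against 3.60 percentage points) and CACTG at intronic summits in windows of 50 bp (5.60 against 17.6). The number of intergenic regions was 158 among the better-ranked 50% of the thresholded list and 209 among those held by all 3 replicates, and their share of arm summits was 13.3% in that better-ranked 50%. It was 19.96%, 13.3% and 10.5% with a start distance of 200, 1000 and 2000 bp. The difference in share held by replicates, 0.389 percentage points, reversed without replicate 1 (-0.896; 0.667 to 1.40 without replicate 2 or 3) and with the best-ranked regions of each replicate reduced to 50% as many (-4.55). That of the forkhead sites TGTTTAC or TATTTAC reversed to -0.535 with summits over 1000 bp from a start, and that of TATAAA to -3.61 in windows of 200 bp. The difference of the forkhead pair was 0.332 without replicate 1, and 0.251 and 0.225 in windows of 50 and 200 bp; that of TGTTTAC was -0.228 and -1.11. The noncoding difference was 7.45 with summits within 500 bp of such genes counted. The median distance to a start was 3910 bp in that better-ranked 50%, 5308 bp over 1000 bp from a start, and 4140.5 to 4232 bp with each replicate left out; the interval length was 14312, 20400 and 15925.5 to 16048 bp. The cause of these changes was not tested, apart from the start distance, which sets the members itself. The mean word differences, added after seeing the data, were positive under every alternative run but much smaller in windows of 50 bp. At intergenic summits, CACTG had 2.03 points there against 16.0, CACTGAG 0.864 against 4.90, ACAGTGG 2.17 against 7.13 and CAGTGTA 0.233 against 5.23. At intronic and promoter summits the 50 bp differences ran from 0.489 to 5.60. Depth is unknown, so no region can be given a counting interval, and the sign-flip test over 3 replicates cannot reach p of 0.05.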
